A study of Mus musculus with 125 samples.

Results

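The 14 embryos described here were chosen by the level of 7 maternal transcripts: they are the 7 highest and the 7 lowest of 21 2PN embryos of the cross JF1/Ms x C57BL/6. They come from a series of 125 libraries, each made from a single mouse embryo at the 2-cell stage, in which zygotes with 1 pronucleus (1PN) were set beside zygotes with 2 separate pronuclei (2PN). All embryos had their second polar body removed. Those from fertilized eggs were selected as zygotes 10 h after fertilization and were collected at 34 h. JF1/Ms and C57BL/6 are inbred mouse strains, and the labels do not say which of them was the mother. The protocol text names the cross only as C57BL/6 x JF1/Ms, while the strain label of these embryos reads JF1/MsxC57BL/6. The groups used here are thus high-index and low-index 2PN embryos of JF1/Ms x C57BL/6 (7 each, from the 21), 43 2PN embryos of C57BL/6 x JF1/Ms, and 31 C57BL/6 parthenotes, which develop without a paternal genome. The parthenotes were activated rather than fertilized, and 10 h and 34 h are given for them too. A 22nd JF1/Ms x C57BL/6 2PN embryo, number 20, was labelled of low quality, held 4803 counts and was left out. No label says which embryos share parents, so every spread and p-value below measures differences between these embryos.

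A mouse egg stores transcripts that it uses while it matures and is fertilized, and the embryo destroys most of them as its own genome is switched on at the 2-cell stage. The index was built from 7 of these stored transcripts. Btg4 encodes an adaptor that brings maternal mRNAs to the CCR4-NOT deadenylase, and Cnot6l encodes a catalytic subunit of that enzyme. Ooep and Zbed3 encode proteins found with the subcortical maternal complex, a structure under the egg surface. Gdf9 and Bmp15 encode growth factors secreted by the oocyte, and H1foo encodes the oocyte's linker histone. For each embryo, counts were divided by the library total and multiplied by 1000000 (CPM). The index is the mean of log2(CPM + 1) over the 7 genes.

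Promoters of 2 of these genes are shown because oocyte transcription factors are known to bind such sites, FIGLA at the E-box (CANNTG) and NOBOX at TAATTG. They are the 250 bases before the start of Ooep (chr9:78378589-78378838, minus strand) and of Bmp15 (chrX:6320725-6320974, minus strand), from RefSeq on GRCm38.p6, written 5′ to 3′ along the gene. Capitals mark every match on either strand, and no match overlapped another.
Ooep: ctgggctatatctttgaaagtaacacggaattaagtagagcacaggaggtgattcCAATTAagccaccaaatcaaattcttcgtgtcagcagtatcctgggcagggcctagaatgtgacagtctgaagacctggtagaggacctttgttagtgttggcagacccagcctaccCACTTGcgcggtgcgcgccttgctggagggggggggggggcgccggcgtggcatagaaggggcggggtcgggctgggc
Bmp15: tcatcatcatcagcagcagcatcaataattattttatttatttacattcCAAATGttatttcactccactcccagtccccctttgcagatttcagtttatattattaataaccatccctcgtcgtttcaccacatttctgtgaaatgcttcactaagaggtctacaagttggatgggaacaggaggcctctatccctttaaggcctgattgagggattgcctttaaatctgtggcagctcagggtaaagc
Ooep held 1 E-box and 1 TAATTG, read here as CAATTA, and Bmp15 held 1 E-box and no TAATTG. An E-box lay in 66.0% and TAATTG in 7.3% of the same window in 27025 promoters, so an E-box does not set these genes apart. A match describes letters in this window and says nothing of binding in these embryos.

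The index ran from 4.73 to 8.40 over the 21 embryos, with a mean of 6.58 ± 0.93 (SD). In the high group it was 8.40, 8.25, 7.70, 7.59, 7.56, 6.93 and 6.88, in embryos 8, 14, 6, 10, 3, 5 and 12. In the low group it was 6.18, 5.95, 5.94, 5.78, 5.67, 5.45 and 4.73, in embryos 15, 11, 9, 4, 18, 2 and 16. Both limits fell between near neighbours. Embryo 12, the last inside the high group, had an index of 6.88 and embryo 21, the first outside, 6.87, while embryo 15, the first of the low group, had 6.176 and embryo 1, the first outside, 6.183. The ranking was thus continuous at both limits.

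**Figure D1:**
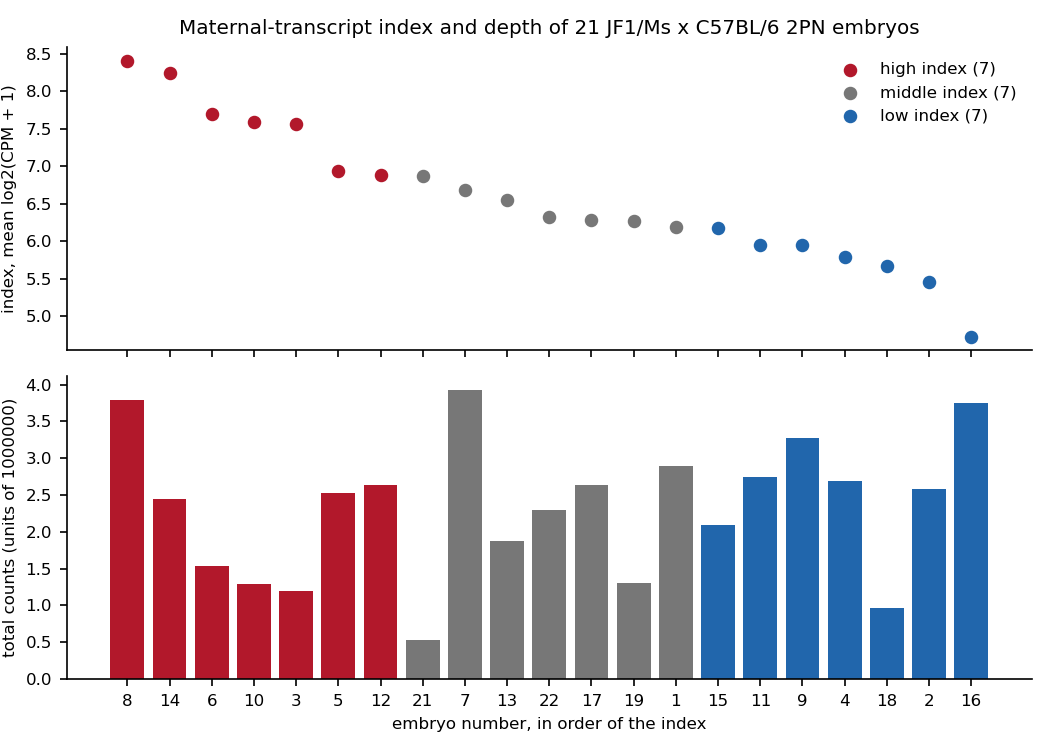
Index (upper panel, mean log2(CPM + 1) of 7 maternal transcripts) and total counts (lower panel, in units of 1000000) for the 21 embryos, numbered as in the labels and ordered by the index, with the high group in red, the middle 7 in grey and the low group in blue. The index falls in small steps from 8.40 to 4.73, and deep and shallow libraries stand in all groups.

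No relation of the index to depth was detected over the 21 embryos. Total counts ran from 1200704 to 3785025 in the high group (median 2440734) and from 962591 to 3748653 in the low group (median 2684818). The shallowest of the 21 was embryo 21, with 533276. Over the 21 embryos the index and total counts had a Pearson r of -0.178 (permutation p = 0.438) and a Spearman rho of -0.216 (permutation p = 0.344), with Benjamini-Hochberg adjusted values of 0.526 and 0.435 over a family of 5 library measures. Without the 2 embryos farthest from the median total (21 and 18), r was -0.28 (permutation p = 0.244). The other measures were genes with counts, the mitochondrial share, Y-linked CPM and the share of the 50 most counted genes. Their r lay between -0.341 and 0.279, the smallest unadjusted permutation p among the 5 was 0.13, and the smallest adjusted p was 0.435. Y-linked genes reached at least 50 counts in 1 of 7 high-index and 3 of 7 low-index embryos. Of the 5 embryos numbered 17 to 22, which the labels do not call a batch, 0 were in the high group, 1 was in the low group and 4 were between.

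Embryo 8 stood apart. It had the highest index at a depth of 3785025 counts, the most genes with counts (20587) and the lowest mitochondrial share (0.971%), and several list medians below are given with and without it. Some named genes with their highest value in embryo 8 had smaller log2 fold differences without it, such as Ipo8 (2.12, and 1.43 without it), Mest (2.78 and 2.04), Wee2 (4.40 and 3.86) and Nlrp4f (3.30 and 2.73).

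The 7 index transcripts set the groups, so their differences are a description. Zbed3 had 611, 1373 and 2612 CPM (lowest, median and highest, as in all such triples below) in high-index embryos, against 93.6, 255 and 398 CPM in low-index embryos. Bmp15 had 215, 409 and 1927 CPM in high-index embryos, against 31.5, 54.3 and 92.5 CPM in low-index embryos. These 2 genes did not overlap between the groups. Btg4 had 213, 234 and 707 CPM in high-index embryos, against 51.0, 106 and 215 CPM in low-index embryos, and its groups overlapped slightly. H1foo reached from 27.4 to 220.0 CPM in high-index embryos and from 2.08 to 42.9 CPM in low-index embryos. Ooep spanned 26.7 to 62.3 CPM in high-index embryos and 1.04 to 37.2 CPM in low-index embryos. Gdf9 spanned 60.4 to 242 CPM in high-index embryos and 25.3 to 156 CPM in low-index embryos, and Cnot6l 94.3 to 256 CPM against 19.7 to 223 CPM. The fitted log2 fold differences, high over low, ran from 1.07 ± 0.40 (SE) for Gdf9 to 3.63 ± 0.49 for Bmp15, so the oocyte growth factors lay at both ends of the range. Each SE of a high-over-low difference, here and below, comes from a fit to groups cut by the index and stands for no test.

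**Figure D2:**
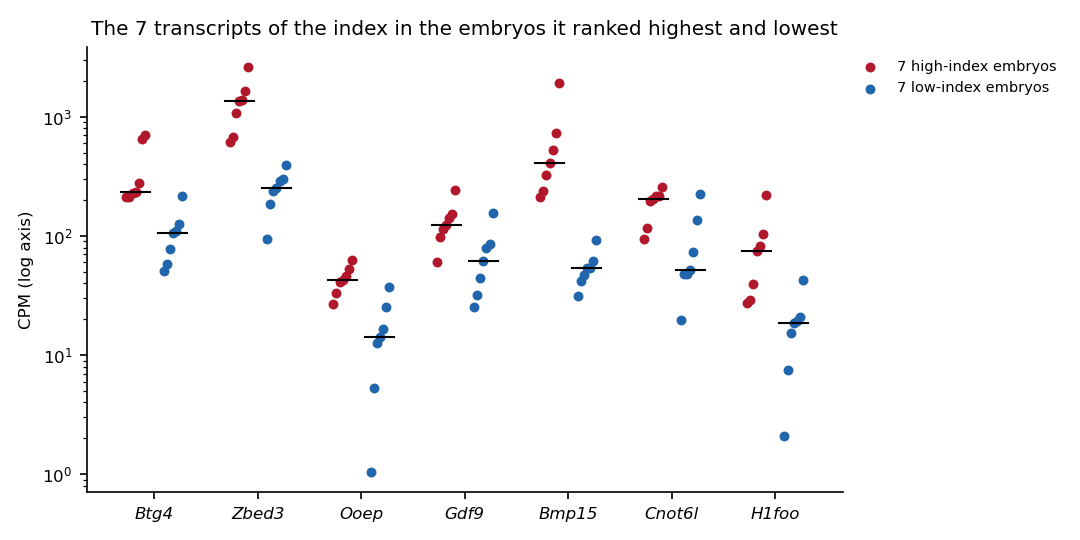
CPM on a log axis of the 7 transcripts of the index in the 7 high-index embryos (red, left of each pair) and the 7 low-index embryos (blue), with 1 point per embryo and a bar at the median. Zbed3 and Bmp15 separate the groups, and the other genes overlap.

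Across the genome, high-index and low-index embryos were compared gene by gene as a description, with no p-value, since the groups were cut from a measured value of the same libraries. A gene is counted when its fitted difference was at least 2-fold and its CPM in the 14 embryos did not overlap. Of 10674 genes outside the index that passed the filter on low counts, 299 (2.80%) were higher and 225 (2.11%) lower in high-index embryos. Each count of higher or lower genes in a list below is to be read beside these shares. The median log2 fold difference of all 10674 genes was -0.01, and 49.6% lay above 0. From counts thinned to the depth of the shallowest library, which also put embryo 19 in the low group in place of embryo 15, the counts were 134 and 41, in embryos of at least 1500000 counts 566 and 454, and without embryo 12 474 and 484. The 10 highest against the 10 lowest embryos left 9 and 1, so the counts depend on where the groups end, and the levels carry more than the counts.

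Other egg transcripts were higher along with the index. Of 43 measured zona pellucida and oocyte factors, 38 had a log2 fold difference above 0 and 5 below. Of these factors 16 were higher and none was lower, against 2.80% and 2.11% of all 10674 genes. The median log2 fold difference of the factors was 1.85 (1.66 without embryo 8). Their mean log2(CPM + 1) was 5.12 to 6.27 in high-index embryos and 4.06 to 4.76 in low-index embryos, with no overlap. Tcl1b3, of the Tcl1 family of oocyte and early embryo genes, had 108, 604 and 923 CPM in high-index embryos, against 16.9, 30.7 and 55.3 CPM in low-index embryos (log2 fold difference 3.93 ± 0.56). Oosp1, an oocyte-secreted protein, had 167, 397 and 835 CPM in high-index embryos, against 26.1, 39.2 and 62.9 CPM in low-index embryos (3.57 ± 0.49). Neither gene overlapped between the groups. The higher genes included Zp1 and Zp2, which encode coat proteins of the egg, Nobox, an oocyte transcription factor, and Npm2, an oocyte histone chaperone.

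The 7 measured genes of the subcortical maternal complex and its lattices had a median log2 fold difference of 1.63 (1.11 without embryo 8), and 2 were higher. Nlrp14 had 346, 550 and 982 CPM in high-index embryos, against 92.5, 193 and 336 CPM in low-index embryos. Nlrp4f had 91.2, 204 and 1284 CPM in high-index embryos, against 9.35, 37.2 and 90.6 CPM in low-index embryos, so its groups met almost at the limit. Nlrp, Tcl1b, Oosp and Obox genes have close copies, and how the submitters treated reads shared between copies is not known here, so single members are uncertain.

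Among genes of meiotic arrest and exit, Wee2, an oocyte kinase that holds and then ends meiosis by acting on CDK1, had 105, 513 and 1595 CPM in high-index embryos, against 8.80, 19.1 and 71.1 CPM in low-index embryos (4.40 ± 0.62). It was the 1 gene counted of 12, and the median of that list was 0.27. Of 23 measured genes of the maternal mRNA decay machinery, 0 were counted in either direction, with a median of 0.35 that was 0.03 without embryo 8. Pan2, a deadenylase, had 26.5, 50.1 and 155 CPM in high-index embryos, against 4.25, 6.19 and 43.6 CPM in low-index embryos, with an overlap.

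Genes that make ribosomes were lower in high-index embryos. Of 60 ribosome biogenesis genes, 7 were counted as lower and none as higher, against 2.11% and 2.80% of all 10674 genes. Of the same 60 genes, 56 had a log2 fold difference below 0, and the median was -1.28 (-1.17 without embryo 8). Their mean log2(CPM + 1) was 4.86 to 7.02 in high-index embryos and 7.17 to 7.81 in low-index embryos, with no overlap. Nop9, a factor of small-subunit assembly, had 0, 2.38 and 10.98 CPM in high-index embryos, against 18.1, 45.8 and 79.5 CPM in low-index embryos (-3.58 ± 0.82). Polr1e, a subunit of RNA polymerase I, which transcribes ribosomal RNA genes, had 10.8, 20.8 and 93.7 CPM in high-index embryos, against 105, 193 and 353 CPM in low-index embryos (-2.71 ± 0.50). Of 12 genes of RNA polymerase I and its factors, 11 lay below 0, with a median of -0.99.

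The 76 cytosolic ribosomal protein genes had a median log2 fold difference of -0.89 (-0.75 without embryo 8), with 71 below 0. Of the 76, 5 were counted as lower, against 2.11% of all genes. Rpl27 had 4.997, 19.9 and 77.4 CPM in high-index embryos, against 82.2, 217 and 267 CPM in low-index embryos (-2.50 ± 0.53). Rpl22 had 6.08, 21.5 and 47.0 CPM in high-index embryos, against 58.8, 108 and 184 CPM in low-index embryos (-2.36 ± 0.43). The mean log2(CPM + 1) of the list was 4.50 in embryo 8 and 6.49 to 7.67 in the other 6 high-index embryos, against 7.67 to 8.20 in low-index embryos.

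Other genes of protein and RNA handling lay on the same side. Proteasome subunits had a median of -1.31, with 29 of 32 below 0 and 3 counted as lower. Translation initiation factors had -0.88, with 30 of 34 below 0 and 2 counted, and splicing factors -0.59, with 39 of 46 below 0 and 4 counted. Of all 10674 genes 2.11% were counted as lower. Psmb4, a subunit of the proteasome core, had 0, 8.19 and 47.0 CPM in high-index embryos, against 51.9, 164 and 202 CPM in low-index embryos. Hnrnpm, an RNA-binding protein of splicing, had 2.50, 18.3 and 64.5 CPM in high-index embryos, against 69.1, 106 and 277 CPM in low-index embryos. Aminoacyl-tRNA synthetases had a median of -0.89, but Farsb, a subunit of the phenylalanine enzyme, went the other way with 95.4, 189 and 521 CPM in high-index embryos, against 27.5, 52.5 and 92.7 CPM in low-index embryos.

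The ribosome level was not even within the high group, and some of the lowest values came from shallow libraries. Embryos 5 and 12 had mean log2(CPM + 1) values of 6.92 and 7.02 for ribosome biogenesis, and the other 5 high-index embryos 4.86 to 5.90. The lowest, 4.86, was that of embryo 8, the deepest of the high group with 3785025 counts. Embryos 3 and 10, the shallowest of that group, had 5.49 and 5.68. Between the groups, embryo 21, the shallowest, had 4.49 and embryo 19, with 1308798 counts, had 6.49. The remaining middle embryos, 7, 13, 22, 17 and 1, had 6.87 to 7.56. The group medians were 5.68 for high-index, 7.37 for middle and 7.44 for low-index embryos. In the low group, embryo 18, with 962591 counts, had 7.44, beside 7.17 to 7.81 in the deeper 6. From thinned counts, with embryo 19 in place of embryo 15, the median difference of ribosome biogenesis genes was -0.97 and that of ribosomal protein genes -0.67, and in embryos of at least 1500000 counts the medians were -1.13 and -0.94. From thinned counts 1 ribosome biogenesis gene and 0 ribosomal protein genes were counted as lower. In embryos of at least 1500000 counts, which leaves out embryos 3, 10 and 18, 13 and 11 were. Smaller groups leave fewer values that can overlap: 5 against 5 embryos gave 32 and 36, and 10 against 10 gave 0 and 0. Depth and the makeup of the low group changed together with thinning, and the part of each was not tested.

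**Figure D3:**
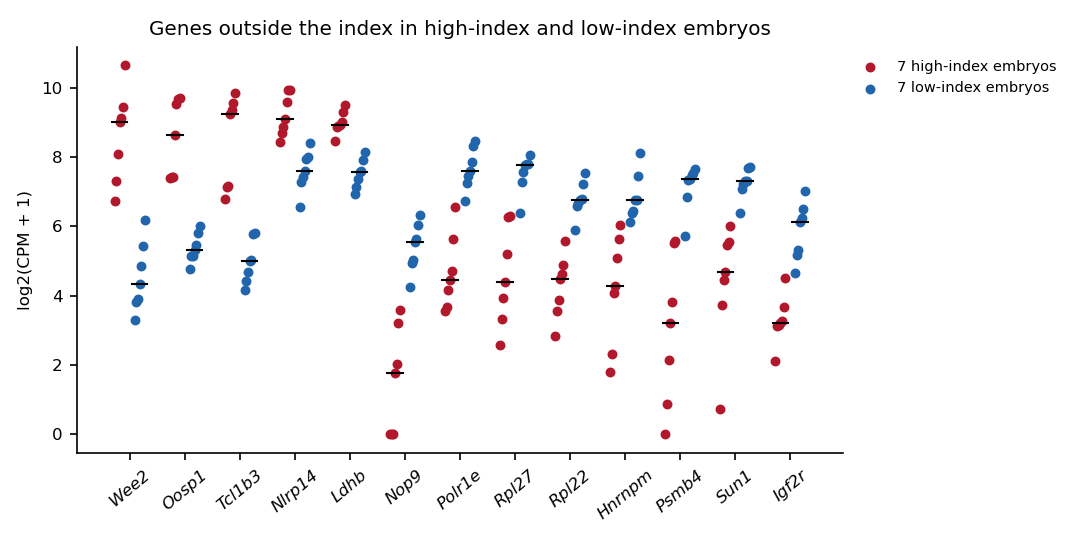
log2(CPM + 1) of 13 genes outside the index in the 7 high-index embryos (red, left of each pair) and the 7 low-index embryos (blue), with 1 point per embryo and a bar at the median. The 5 genes at the left are higher and the other 8 lower in high-index embryos, with no overlap in any of them.

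Transcripts of the 2-cell stage, which the embryo makes when its genome is switched on, did not go down with the ribosome genes. Of 37 measured, 2 were higher and 1 lower, and the median was 0.75 (0.64 without embryo 18). Their mean log2(CPM + 1) was 5.90 to 6.81 in high-index embryos and 4.58 to 6.46 in low-index embryos, with embryo 18 at 4.58 and the other 6 from 5.87. Zscan4d, of a gene cluster that marks the 2-cell stage, had 182, 399 and 1005 CPM in high-index embryos, against 1.04, 90.2 and 163 CPM in low-index embryos. Its log2 fold difference of 2.32 was smaller in some settings: it was 0.67 from thinned counts, where 0 genes of the list were counted, and 0.40 with an index without Cnot6l. Calcoco2, the gene counted on the lower side, and Tdpoz5, the other one on the higher side, lie outside the rule for named genes and were picked after their values were seen. Among regulators of genome activation the median was -0.55, and the 3 counted as higher were Nfya, a subunit of the factor NF-Y, and the homeobox genes Obox1 and Obox2. Obox1 had 38.4, 81.7 and 198 CPM in high-index embryos, against 0, 23.3 and 29.1 CPM in low-index embryos.

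Mitosis genes had a median of -0.10, with 0 of 48 counted in either direction. Ldhb, a lactate dehydrogenase subunit, had 349, 481 and 717 CPM in high-index embryos, against 122, 188 and 281 CPM in low-index embryos. Pou5f1, which encodes the pluripotency factor OCT4, had 13.3, 65.4 and 654 CPM in high-index embryos, against 0, 1.82 and 10.7 CPM in low-index embryos. The highest value was that of embryo 8, and its log2 fold difference of 5.38 ± 0.94 was 3.87 without it. Of 10 measured maternally expressed imprinted genes, 2 were counted as higher (Th and Copg2) and 1 as lower (Igf2r), with a median of -0.21. Of 15 paternally expressed ones, 1 was counted as higher (Mest) and 0 as lower, with a median of 0.04. Th had 84.8, 187 and 884 CPM in high-index embryos, against 17.15, 31.9 and 69.3 CPM in low-index embryos. Igf2r, a receptor made from the maternal copy in most tissues, had 3.33, 8.19 and 21.8 CPM in high-index embryos, against 24.3, 68.6 and 129 CPM in low-index embryos. Mest, made from the paternal copy, had 27.5, 33.1 and 206 CPM in high-index embryos, against 3.97, 7.79 and 17.4 CPM in low-index embryos. Sun1, a protein of the inner nuclear membrane, had 0.653, 24.8 and 63.4 CPM in high-index embryos, against 81.9, 156 and 208 CPM in low-index embryos.

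The genes with the largest fitted differences were mostly near 0 in 1 group. Among the 10 most positive, Cnn1, which encodes calponin 1, an actin-binding protein, had 60.3, 122 and 170 CPM in high-index embryos, against 0.267, 1.46 and 8.57 CPM in low-index embryos (5.04 ± 0.66). Ceacam20, a cell surface protein, had 30.9, 81.2 and 171 CPM in high-index embryos, against 2.67, 3.73 and 7.14 CPM in low-index embryos (4.60 ± 0.53). The others were Mctp1, Mfap2, Antxr2, Pou5f1, Cdh15, Skap1, Tmem106c and Nat14. Among the 10 most negative, Sssca1 had 0, 1.11 and 1.32 CPM in high-index embryos, against 12.5, 36.5 and 67.9 CPM in low-index embryos (-5.28 ± 0.68). Tmem185b was at 0 in 6 of 7 high-index embryos and at 4.29 to 76.9 CPM in low-index embryos. The rest were Rflnb, Kcnk6, Tpgs1, Naf1, Rundc1, Dnaaf2, Cox16 and Mtx2.

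Markers of other cells were few, with exceptions among those of sperm and testis. Of 16 cumulus and granulosa markers 4 were at 0 in all 14 embryos (Ptx3, Fshr, Lhcgr and Nr5a1), and their summed level was 11.4 to 54.3 CPM in high-index embryos and 45.3 to 134 CPM in low-index embryos, mostly from Gja1 and Amhr2 except in embryo 10. Of 18 sperm and testis markers 7 were at 0, and the summed level was 165 to 943 CPM in high-index embryos and 50.9 to 212 CPM in low-index embryos, with Odf2, a centrosome protein not limited to sperm, at up to 929 and 80.7 CPM and Tex101, a germ-cell surface protein, at up to 153 and 114 CPM. Of 9 blood and other markers 2 were at 0, and the summed level was 5.22 to 29.3 CPM in high-index embryos and 4.38 to 26.9 CPM in low-index embryos. The part of these cells in the differences was not tested.

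The relation to the index was then tested in embryos that the ranking did not use. In the 43 2PN embryos of C57BL/6 x JF1/Ms, each gene was fitted against the index as a number with edgeR's quasi-likelihood test, and the slope is the log2 change per unit of index. At a Benjamini-Hochberg adjusted p of 0.05, 1864 of 17694 genes outside the index (10.5%) rose with the index and 1588 (8.97%) fell. Counts of gene lists in this cross are to be read beside these shares. Of the 299 genes higher in high-index JF1/Ms x C57BL/6 embryos, 298 were in this fit, 280 had a positive slope and 202 rose, which is 67.6% of the 299 and 10.8% of the genes that rose. Of the 225 lower genes, 197 had a negative slope and 76 fell, which is 33.8% of the 225 and 4.79% of the genes that fell. None of the 299 fell and none of the 225 rose. Of the 10 genes with the most positive fitted differences Mfap2, Antxr2, Skap1 and Ceacam20 rose here, and of the 10 most negative none fell. CPM are shares of a library, so a rise of some genes lowers the share of others.

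Egg transcripts were again among the genes that rose in C57BL/6 x JF1/Ms. Of 46 zona pellucida and oocyte factors 28 rose and 2 fell (Zp3 and Dppa3), with a median slope of 0.75, against -0.01 for all genes. Tcl1b2 rose by 1.12 ± 0.14 (edgeR adjusted p = 2.57e-08), with 33 of 43 embryos on the side of the median that the slope gives, and Nlrp4a by 0.94 ± 0.12 (adjusted p = 3.99e-08, 35 of 43). Wee2 rose by 1.00 ± 0.13 (adjusted p = 2.28e-07, 37 of 43). Of 7 genes of the subcortical maternal complex 5 rose, among them Nlrp14 at 0.79 ± 0.09 (adjusted p = 1.89e-09, 33 of 43). Obox1 at 1.37 ± 0.10 and Obox5 at 1.00 ± 0.08 rose too (adjusted p = 2.71e-14 and 2.61e-12). Of 25 mRNA decay genes 8 rose and 3 fell, with a median slope of 0.10.

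Ribosome genes fell with the index in this cross. Of 76 ribosomal protein genes 60 fell, with a median slope of -0.33, and of 60 ribosome biogenesis genes 21 fell, with a median of -0.24. None of either list rose, by edgeR, DESeq2 or limma, or at an unadjusted p under 0.05. Rpl22 fell by 0.53 ± 0.13 (SE) on the log2 scale (edgeR adjusted p = 0.00176, 33 of 43 embryos), Hnrnpm by 0.52 ± 0.11 (adjusted p = 0.000297, 29 of 43) and Polr1e by 0.36 ± 0.10 (adjusted p = 0.00918, 26 of 43). Without the 2 embryos farthest from the median index, 44 ribosomal protein and 13 ribosome biogenesis genes fell. Of 48 mitosis genes 22 fell and 3 rose, where 8.97% of all genes fell and 10.5% rose, and 14 fell without those 2 embryos. None of the 48 was counted between the groups of JF1/Ms x C57BL/6, but that rule of no overlap is unlike this test, so the counts cannot be compared.

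**Figure D4:**
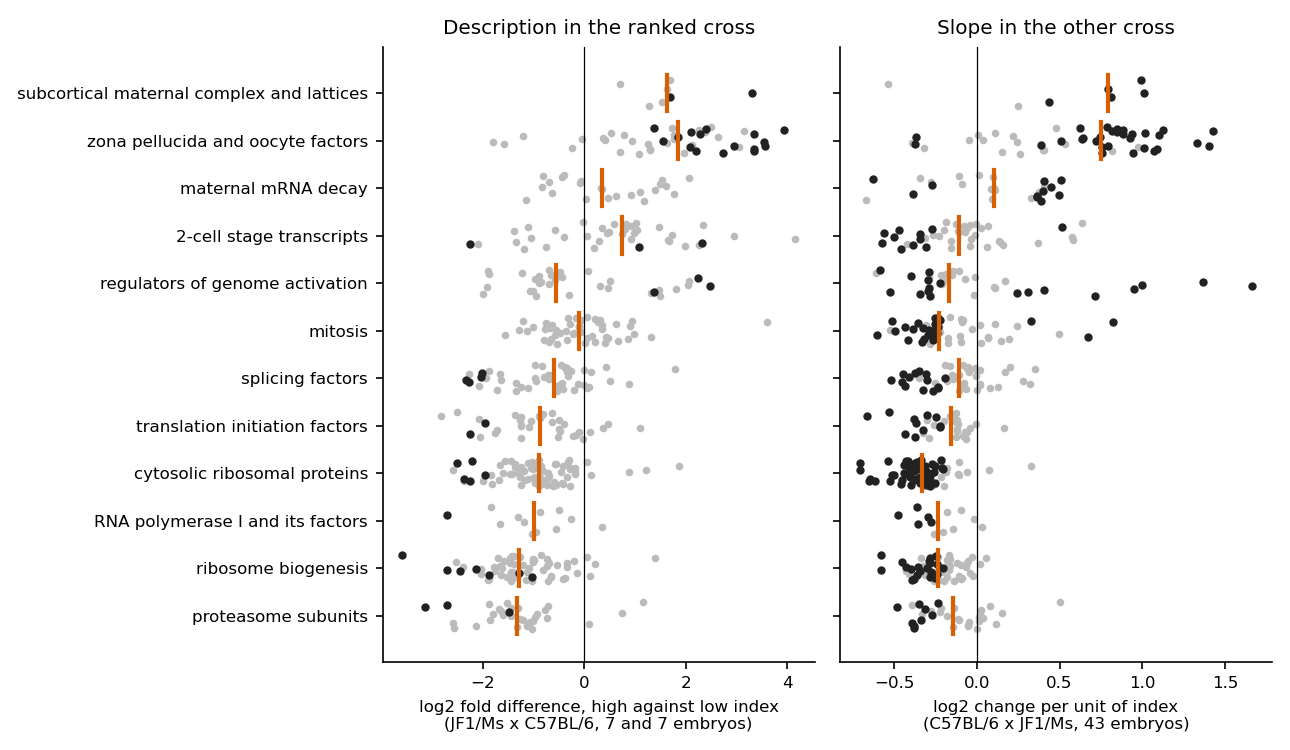
Each point is a gene of the list named at the left, with its log2 fold difference between 7 high-index and 7 low-index JF1/Ms x C57BL/6 embryos (left panel) and its log2 change per unit of index in 43 C57BL/6 x JF1/Ms embryos (right panel). Black points met the description rule (left) or the adjusted threshold (right), and orange bars are medians, which lie at 1.85 and 0.75 for oocyte factors and at -1.28 and -0.24 for ribosome biogenesis.

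Transcripts of the 2-cell stage had medians of opposite sign in the 2 crosses. In C57BL/6 x JF1/Ms 10 of 40 fell and 1 rose, where 8.97% of all genes fell and 10.5% rose. The median slope was -0.11, and 5 fell without the 2 embryos farthest from the median index. Zscan4d, higher in high-index JF1/Ms x C57BL/6 embryos, had a slope of -0.01 ± 0.23 there (adjusted p = 0.988). Whether the slopes of the crosses differ was not tested. Mitochondrially encoded genes had a median difference of 0.64 between high-index and low-index embryos with none of 13 counted. In C57BL/6 x JF1/Ms edgeR called none of them, and neither did DESeq2 or limma, while 2 had a negative slope at an unadjusted p under 0.05. Without the 2 embryos farthest from the median index edgeR called 2 of the 13, both falling.

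**Figure D5:**
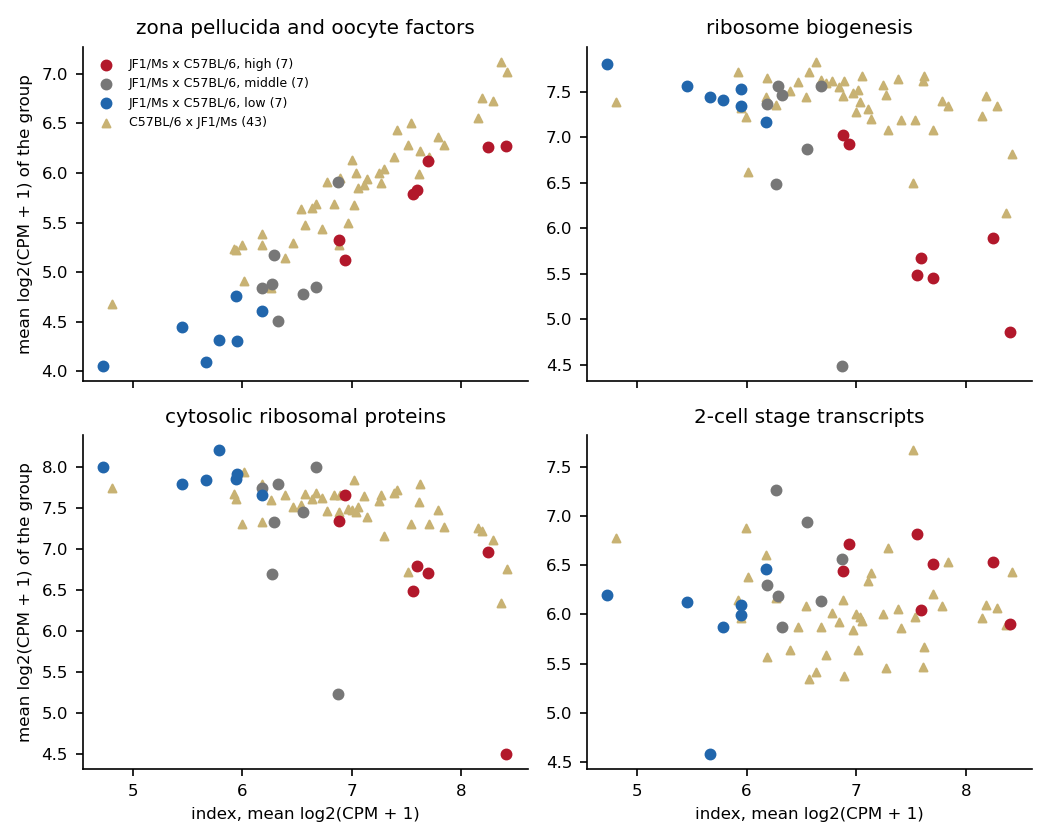
Mean log2(CPM + 1) of 4 gene lists against the index, with 1 point per embryo: 21 JF1/Ms x C57BL/6 embryos as circles (high group red, middle grey, low group blue) and 43 C57BL/6 x JF1/Ms embryos as triangles. Oocyte factors rise with the index in both crosses, the ribosome lists spread downwards at a high index with embryo 8 at 4.50 for ribosomal proteins, and 2-cell stage transcripts show no common course.

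Parthenotes gave the same directions for egg and ribosome genes, with counts that depended on 2 embryos. Of 18687 genes outside the index, 1429 (7.65%) rose and 1394 (7.46%) fell with the index in the 31 embryos (edgeR, adjusted p of 0.05). Of the oocyte factors 23 of 46 rose and 1 fell, of ribosomal protein genes 57 of 76 fell and of ribosome biogenesis genes 34 of 60 fell. Wee2 rose by 0.90 ± 0.16 (adjusted p = 0.000178, 20 of 31 embryos), and Polr1e fell by 1.47 ± 0.26 (adjusted p = 0.000213, 21 of 31). Without the 2 embryos farthest from the median index 301 genes rose and 225 fell, with 14 oocyte factors rising and 9 ribosomal protein and 7 ribosome biogenesis genes falling. With depth as a covariate 835 rose and 794 fell, among them 33 ribosomal protein and 17 ribosome biogenesis genes that fell. Of 39 transcripts of the 2-cell stage 36 had a negative slope in parthenotes, 9 fell and 2 rose, with a median slope of -0.53, and 1 fell and 1 rose without the 2 farthest embryos. Of the 299 genes higher in high-index embryos 140 rose in parthenotes (46.8%), and of the 225 lower genes 67 fell (29.8%).

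A difference in the level of the index between the crosses lay at the edge of the threshold and was not settled, since it passed in some settings only. It averaged 6.58 ± 0.93 in 2PN embryos of JF1/Ms x C57BL/6 and 7.01 ± 0.76 in those of C57BL/6 x JF1/Ms (SD, n = 21 and 43), a difference of -0.435 (permutation p = 0.0499). From counts thinned to equal depth the difference was -0.428 (permutation p = 0.0591). With CPM rescaled by TMM it was -0.445 (permutation p = 0.0327), and with same-numbered embryos as a block -0.446 (permutation p = 0.105). Total counts were 533276 to 3925339 in JF1/Ms x C57BL/6 and 1691418 to 4887274 in C57BL/6 x JF1/Ms. The spread of the index within each cross was larger than the difference between them, and the median was 7.51 in parthenotes.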

How the data were processed

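Single 2-cell embryos were profiled with a SMART-Seq v4 Ultra Low Input kit and a Nextera XT kit, per the labels' protocols. Per the submitters' processing notes, HISAT2 2.0.5 and featureCounts 2.0.0 were used, with the build GRCm38. The authors deposited unscaled estimated counts, and 28.4% of the values above 0 were not whole. They were rounded before any test. The sources used here give neither the annotation release nor how strand and shared reads were treated. The kits do not mark strand, so reads from where genes overlap cannot be assigned to 1 of them by strand. Such overlaps are those of Mest with Copg2, at their ends, and of Igf2r with its antisense RNA. The table held 43421 genes and 125 libraries. Symbols came from a table that matched 43266 identifiers, and coordinates from RefSeq, which matched 32350. The 4 libraries labelled dead or of low quality were left out. No 2 of the 21 libraries looked like 1 library deposited in 2 copies (lowest chi-square per gene 18.6).

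The members, the gene lists and the tests were chosen with earlier results of these data known, so no count over a list is independent evidence of its direction. High-index and low-index embryos were fitted with edgeR 4.0.16 in R 4.3.3 (quasi-likelihood, TMM, filterByExpr) for log2 fold differences and SE, with no p-value. Slopes on the centred index in 43 and 31 embryos used the same tool and filter, with Benjamini-Hochberg adjustment over all genes tested. The index genes stayed in the fits and out of every count. Index levels and library measures were compared with 2-sided permutation tests of 100000 resamples. Genes were named by a rule: the 10 most positive and 10 most negative counted genes averaging 10 CPM or more where higher, up to 4 members per list with the largest absolute difference, the index genes, Xist and Y-linked genes, of which the text prints some. Genes given without values are list members that met the count.

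Alternatives were DESeq2 1.42.0, limma 3.58.1 voom, other scalings, no filter, thinning to 533116 counts, depth as a covariate or a minimum, other group sizes, an index without each gene, and each of the 14 embryos left out, the last chosen after seeing the data. Simulated data with 200 changed genes were used to test the slope fit. In 16980 genes of the C57BL/6 x JF1/Ms embryos it recovered 63% of genes with a slope of 1 and 30% of those with 0.5, and 7 of 100 calls were unchanged genes. In 17756 genes of the parthenotes it recovered 34% and 5%, and 1 of 40 calls was unchanged. The simulation drew each gene independently and took the index as known without error, so its rates need not hold for the calls in the data. The other steps ran in Python 3.11.15 (scipy 1.17.1, numpy 2.4.6, matplotlib 3.10.9, pandas 2.3.3).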

Additional observations from a re-analysis of the deposited data

Results flagged for a closer look

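A total of 6 values lay far from the rest of their group of 7 embryos, of 82 looked at, where chance alone is set to pick about 1 in 20. Embryo 8 of the high group had a mean log2(CPM + 1) of 4.5 for ribosomal protein genes and of 7.11 for mitochondrially encoded genes, both below the other 6. Embryo 10 of the high group had 1.27 for cumulus and granulosa markers, above the other 6. Embryo 18 of the low group had 13526 genes with counts and a mean log2(CPM + 1) of 4.58 for 2-cell stage transcripts, and it was the shallowest library of its group. Embryo 16, the lowest of all by the index, had 8.3 for mitochondrially encoded genes, below the rest of the low group.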

How the results depend on the processing

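Between high-index and low-index embryos the counts of higher and lower genes, 299 and 225, were 566 and 454 in embryos with at least 1500000 counts, 134 and 41 from thinned counts, where 1 low-index embryo was exchanged, 915 and 1225 for 5 against 5, 9 and 1 for 10 against 10, and 1188 and 1472 within embryos numbered 1 to 16. The lower genes were 458 with an index without Btg4, 481 without Zbed3 and 61 without Cnot6l. Leaving out 1 of the 14 embryos gave 313 to 474 higher and 232 to 484 lower genes, the most without embryo 12. Over 1.5 times the 225 lower genes were also found without embryo 5 (395), 18 (356) and 15 (345). Smaller groups and fewer shallow libraries leave fewer values that can overlap, by construction. No embryo switched between the high and low groups under another index or thinning.

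In C57BL/6 x JF1/Ms 3285 genes rose with no filter on low counts. In parthenotes 3000 rose with no filter, 835 rose and 794 fell with log2 total count as a covariate, and 301 rose and 225 fell without the 2 embryos farthest from the median index. The cause was not tested. The index difference between crosses was -0.428 (permutation p = 0.0591) from thinned counts and, with same-numbered embryos taken as a block, -0.446 (permutation p = 0.105). The labels give no reason to pair by number, and same-numbered embryos had a correlation of -0.203.

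Median log2 differences of lists near 0 changed sign. Mitosis had 0.06 from thinned counts. Chromatin, at -0.11, had 0.05 with depth as a covariate, 0.04 at 1500000 counts, 0.07 thinned, 0.09 for 10 against 10, 0.03, 0.04 and 0.2 for an index without Btg4, Zbed3 and Ooep, 0.1 for embryos numbered 1 to 16, and -0.16 to 0.16 with 1 embryo left out. For 10 against 10, p53 targets had 0.01 and apoptosis 0.11. Paternally expressed imprinted genes, at 0.04, ranged from -0.18 to 0.21. Of the other list medians under an alternative, 15 moved by more than the spread between embryos. Low genes in shallow libraries limit the counts: a gene at 0 in a library of 962591 counts may be present below its depth.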

Other observations

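Nuclear genes of the respiratory chain and import genes lay more often below 0 than above it, with few counted. Of 57 nuclear genes of the respiratory chain, 1 was higher (Sdhb) and 1 lower (Cox4i1) in high-index embryos, 38 lay below 0, and the median log2 fold difference was -0.52. Nuclear import and envelope genes had a median of -0.47, 37 of 53 lay below 0, and 1 was counted as higher and 3 as lower. Ipo8, an import receptor, had 70.0, 260 and 1120 CPM (lowest, median and highest) in high-index embryos, against 36.7, 70.5 and 180 CPM in low-index embryos. In C57BL/6 x JF1/Ms 14 of 54 import and envelope genes fell and 7 rose, where 8.97% of all genes fell and 10.5% rose. There Ipo8 rose with the index by 0.67 ± 0.11 (edgeR adjusted p = 2.27e-05, 30 of 43 embryos) and Tnpo1, a further import receptor, by 0.52 ± 0.12 (adjusted p = 0.00131, 31 of 43), while Sun1 fell by 0.53 ± 0.10 (adjusted p = 6.61e-05, 29 of 43).

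Glycolysis genes had a median of 0.74 with Ldhb counted of 18, and Ldhb rose with the index in C57BL/6 x JF1/Ms by 0.50 ± 0.09 (edgeR adjusted p = 0.000111, 34 of 43 embryos). DNA replication genes had a median of -0.39 with 2 of 47 counted as higher. The 1PN embryos of JF1/Ms x C57BL/6 called parthenogenetic had index values of 7.89 to 9.98 (n = 4), and the 1PN embryos of that cross not so called had 5.01 to 6.45 (n = 3).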
